A study of Rattus norvegicus with 9 samples.

Results

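The transcripts described here come from the mitochondrial genome: the 37 of 34408 gene entries that the gene table places on the chromosome named MT. They fall into 13 protein-coding genes, 2 ribosomal RNAs (rRNAs) and 22 transfer RNAs (tRNAs), and all 37 were kept whatever their level. They were measured by RNA sequencing of rat spleen in 9 libraries, 3 in each of 3 groups, all labelled wild type. The control group carries no treatment beyond the label control. The TAA group received thioacetamide (TAA), a liver toxin used to produce fibrosis and cirrhosis in rodents, by intraperitoneal injection every 3 days, at 200 mg/kg in the first 8 weeks and at 100 mg/kg in the last 8. The TAA+celecoxib group received the same TAA doses together with celecoxib, an inhibitor of cyclooxygenase 2, at 20 mg/kg per day over the last 8 weeks. The comparison of the TAA groups with and without celecoxib therefore has TAA on both sides, and no group received celecoxib alone. The labels name the tissue spleen and the cell type splenocytes, and do not say that each library came from its own animal, so the p-values measure only the spread between these libraries, which may be technical.

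Mitochondrial DNA is a small circle transcribed from both strands into long precursors, which are cut at the tRNAs that lie between most of the genes to release the mRNAs and rRNAs. Its mRNAs encode core subunits of respiratory complexes I, III and IV and of the ATP synthase (complex V), while the other subunits, and every protein of the transcription and RNA processing machinery, are encoded in the nucleus. Its rRNAs form the core of the mitochondrial ribosome, which translates these mRNAs alone.

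The libraries held 14211789 to 19014761 counts, and a single count was worth 0.0522 to 0.0710 CPM, the unit used to compare 1 gene between libraries (counts relative to the library total times edgeR's normalization factor). All 8 B cell and all 10 T cell markers had counts in every library, with summed levels of 1990 to 3920 CPM and 627 to 1070 CPM. The libraries control 1 and TAA+celecoxib 1 stood apart: their 12 macrophage markers summed to 3040 and 2440 CPM against 4710 to 8980 CPM in the other 7, and their 5 endothelial markers to 219 and 212 CPM against 498 to 835 CPM. Hepatocyte markers, 7 of 8 of which are in the table, summed to 879 CPM in TAA 1 and 118 CPM in control 1, against at most 1.47 CPM elsewhere. Pancreatic acinar markers summed to 81.8 CPM in TAA 2 and to 5.67 to 20.9 CPM elsewhere. Neutrophil markers summed to 475 to 2300 CPM in TAA, 89.4 to 346 CPM in control and 356 to 812 CPM in TAA+celecoxib, and megakaryocyte and platelet markers to 310 to 368, 163 to 260 and 184 to 259 CPM in that order, so that TAA lay above control for both without overlap. For the megakaryocyte and platelet markers TAA also lay above TAA+celecoxib without overlap. The part of these cells in the results below was not tested. Plasma cell markers, at 2090 to 3900 CPM, fat markers, at 60.7 to 322 CPM, and muscle markers, at 276 to 490 CPM, overlapped between all groups.

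Mitochondrial transcripts held 3.15% to 4.60% of the counts of a library. The 13 protein-coding rows, called mRNAs here although rows that share bases may lie on the same RNA, made up 94.4% to 97.3% of that. The share of the 13 protein-coding genes was 4.04%, 3.50% and 3.24% among controls, 3.04%, 3.12% and 3.52% under TAA, and 4.35%, 3.82% and 3.96% under TAA+celecoxib. Every TAA+celecoxib library lay above every TAA library, while the control libraries spanned from within the TAA range to within the TAA+celecoxib range. The group means were 3.60% ± 0.409 for control, 3.23% ± 0.257 for TAA and 4.04% ± 0.274 for TAA+celecoxib (SD, n = 3 each).

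The TAA+celecoxib mean exceeded the TAA mean by 0.818 percentage points, a ratio of 1.25 (exact permutation test, two-sided, p = 0.1, the smallest that 3 libraries against 3 can give). As a share of summed FPKM (fragments scaled by gene length and library size), the difference was 1.17 points (p = 0.2, exact permutation test). By that measure the libraries of these groups were therefore not fully separated. The TAA mean was 0.898 times the control mean (p = 0.3, exact permutation test), and the difference of -0.368 points became -0.144 without control 1 and -0.544 without control 3. The TAA+celecoxib mean was 1.13 times the control mean (p = 0.3, exact permutation test), and the difference of 0.450 points became 0.674 without control 1, 0.274 without control 3 and 0.297 without TAA+celecoxib 1. With control and TAA+celecoxib libraries paired by number, all 3 pairs were higher with celecoxib (exact paired permutation p = 0.25, the smallest that 3 pairs can give). The labels do not state such a pairing. After Benjamini-Hochberg adjustment over the 18 share and ratio tests of this kind, no p was below 0.54. The macrophage markers ran the other way between the groups, with summed levels of 6050 to 8980 CPM in TAA, 2440 to 5190 CPM in TAA+celecoxib and 3040 to 5580 CPM in control. The megakaryocyte and platelet markers did so too, at 310 to 368, 184 to 259 and 163 to 260 CPM in that order. The part of these cells in the difference was not tested, and in RNA of mixed cells fewer cells of a type and less RNA per cell cannot be told apart. Without TAA+celecoxib 1 the difference from TAA was 0.665 points, and without TAA 1, the library with hepatocyte transcripts, it was 0.725 points.

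**Figure D1:**
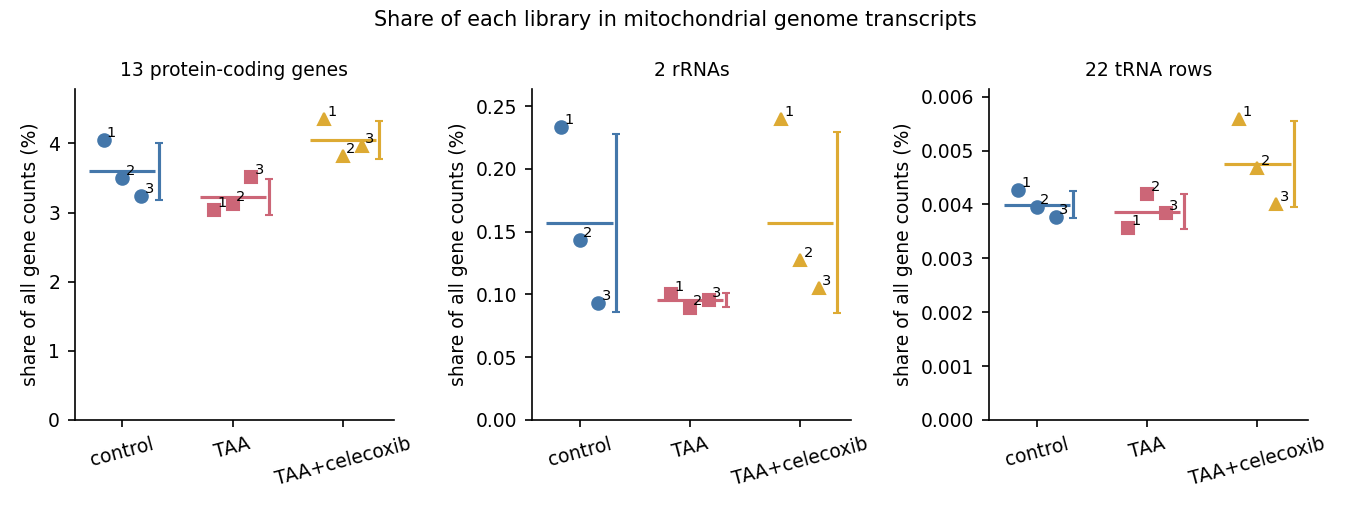
Share of all gene counts (%) held by the 13 mitochondrial protein-coding genes, the 2 rRNAs and the 22 tRNA rows; points are libraries with their replicate number, lines are group means and bars the SD (n = 3). The 3 TAA+celecoxib libraries, at 3.82% to 4.35%, lie above the 3 TAA libraries, at 3.04% to 3.52%, in the protein-coding panel, and replicate 1 of control and of TAA+celecoxib is the highest of its group in all 3 panels.

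Levels of different genes were compared in FPKM, fragments scaled by gene length and library size. The mRNA rows, which share their precursors, differed widely in FPKM: the mean over 9 libraries ran from 7528 FPKM for Mt-co3 to 70.3 FPKM for Mt-atp8. The 3 cytochrome c oxidase genes and Mt-atp6 led, with Mt-co1 at 7170, Mt-atp6 at 6641 and Mt-co2 at 5520 FPKM. Mt-cyb followed at 3235 FPKM, then Mt-nd1 at 2383, Mt-nd2 at 2102, Mt-nd3 at 1581 and Mt-nd4l at 1162 FPKM. Mt-nd5 at 576, Mt-nd6 at 491 and Mt-nd4 at 246 FPKM were the lowest above Mt-atp8.

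Neighbours in that order often overlapped across libraries. The ranges of Mt-co3, from 6081 to 10078 FPKM, and of Mt-co1, from 6023 to 8783 FPKM, covered most of the same span, as did those of Mt-nd1, from 1901 to 2917 FPKM, and Mt-nd2, from 1621 to 2577 FPKM. By contrast, Mt-nd4, from 190 to 317 FPKM, stayed below both Mt-nd5 and Mt-nd6 in every library, and Mt-atp8, from 46.9 to 125 FPKM, stayed below Mt-nd4.

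Genes that lie side by side differed widely in FPKM. Mt-nd4l and Mt-nd4, neighbours on the same strand that share 7 bases and encode complex I subunits, differed by 3.68 to 6.22 times in FPKM, with Mt-nd4l the higher in all 9 libraries. Mt-atp8 and Mt-atp6, the ATP synthase pair that shares 43 bases, differed by 59.8 to 153 times, with Mt-atp6 the higher. How reads over shared bases were assigned is not given in the sources used here. As the rows of a pair may lie on the same RNA, these ratios may not be ratios of RNA amounts. Mt-nd6 is the only protein-coding gene on the minus strand and shares 23 bases with Mt-nd5; because the strand setting of the counting is also not given, reads from the opposite strand cannot be told apart from its own.

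**Figure D2:**
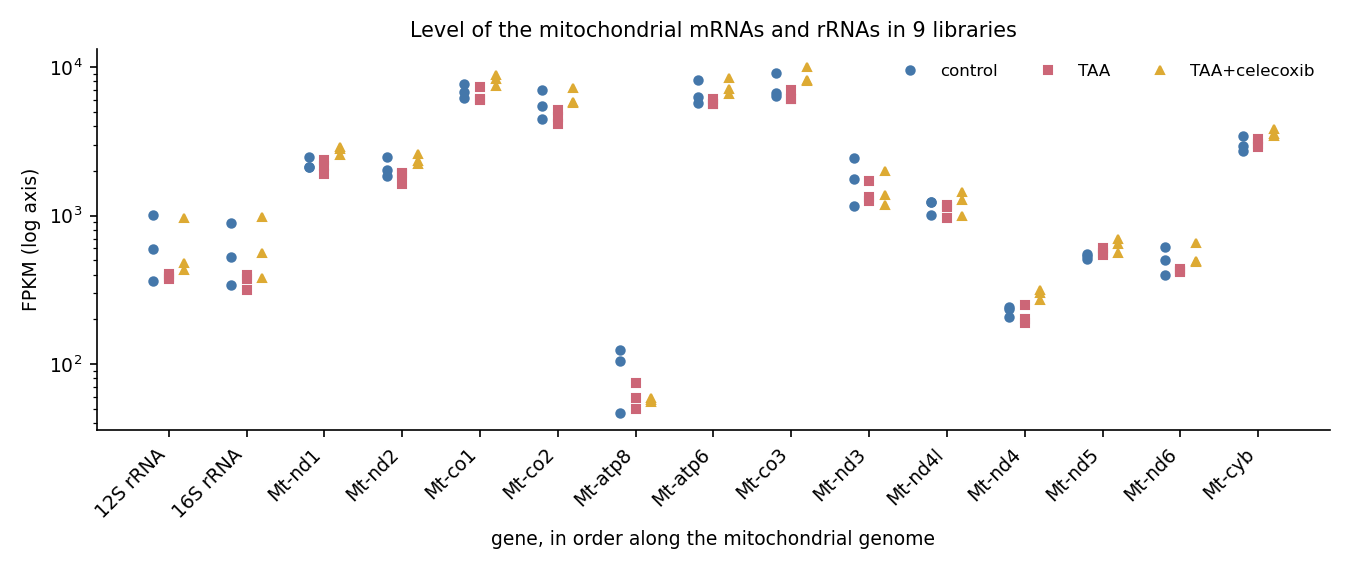
FPKM on a log axis of the 2 rRNAs and 13 mRNAs in the order of their positions on the mitochondrial genome, with 1 point per library and the 3 groups side by side. The Mt-co, Mt-atp6 and Mt-cyb genes sit highest, Mt-atp8 lowest at 46.9 to 125 FPKM, and Mt-nd4 falls below its neighbours at 190 to 317 FPKM.

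Gene by gene, edgeR's quasi-likelihood test over 15954 genes called none at an adjusted p under 0.05 in any of the 3 comparisons, a background of 0% called, and the smallest adjusted p-values over all genes were 0.325, 0.328 and 0.566. Unadjusted p-values under 0.05 were held by 957 genes in TAA against control (2.85% higher and 3.15% lower), 812 in TAA+celecoxib against TAA (2.63% higher and 2.46% lower) and 803 in TAA+celecoxib against control (2.96% higher and 2.07% lower). DESeq2 called 53, 25 and 27 genes in the same order and limma-voom none, and no mitochondrial row was called by any of the 3 tools. All 13 mRNAs, both rRNAs and 5 of the 22 tRNAs passed the filter on low counts. The 3 comparisons share libraries, so their values are set side by side as descriptions.

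Of the 13 mRNAs, 12 had a higher fitted level in TAA+celecoxib than in TAA and 9 had libraries that did not overlap, all 9 higher with celecoxib. Among all tested genes, 10.9% did not overlap in either direction, 5.87% with the higher and 5.03% with the lower values in TAA+celecoxib. The 13 genes lie on shared precursors and are not independent of each other. Their median log2 fold change was 0.36, against 0.01 over all tested genes. Among the 13, 4 had an unadjusted p under 0.05 (Mt-nd4, Mt-nd1, Mt-nd2 and Mt-co3, all higher, against 2.63% of all tested genes), and the adjusted p-values of all 13 ran from 0.890 to 0.973 (edgeR). That number was 1 without TAA 1, TAA 2 or TAA+celecoxib 1, where 612, 654 and 529 of all tested genes had such a p. It was 2 in the fit of only the 6 libraries compared (693 of all tested genes) and 7 with DESeq2 (951). Leaving out control 1 and TAA+celecoxib 1 together, an alternative chosen after seeing the data, gave 11 of 13 fitted higher and 11 not overlapping, with a background of 8.96% higher at 2 libraries against 3. Without TAA 1, 13 of 13 were fitted higher and 9 did not overlap, where 9.62% of all tested genes were higher without overlap.

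In TAA against control, 11 of the 13 mRNAs had a lower fitted level, and their median log2 fold change was -0.21 against 0.00 over all tested genes. None of the 13 had an unadjusted p under 0.05 (edgeR) or libraries that did not overlap, where 14.8% of all tested genes did not overlap (6.94% higher and 7.89% lower in TAA). The median moved to -0.03 without control 1. Without control 3, 7 of 13 did not overlap, all lower in TAA, where 14.6% of all tested genes were lower without overlap. In this comparison the T cell markers summed to 627 to 765 CPM in TAA and 866 to 1070 CPM in control, a difference whose part was not tested. In TAA+celecoxib against control, 11 of 13 had a higher fitted level with a median of 0.16 against 0.00 (0.32 without control 1 and 0.06 without control 3), and Mt-nd1, Mt-nd4 and Mt-nd5 did not overlap, all higher with celecoxib, against 9.68% of all tested genes in either direction, 5.27% higher and 4.42% lower. Without control 1, 9 of 13 did not overlap, where 13.8% of all tested genes were higher without overlap, and without control 3 only 8 of 13 were fitted higher.

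Complex I, the entry point of electrons from NADH, has 7 mitochondrially encoded subunits, and their summed share of counts was 0.700% ± 0.0643 in control, 0.637% ± 0.0339 in TAA and 0.778% ± 0.00289 in TAA+celecoxib (SD, n = 3 each). By this share the TAA+celecoxib libraries, at 0.775% to 0.780%, lay above all 6 others, which reached at most 0.770% in control 1. By summed FPKM they did not: control 1, at 10046, exceeded all 3 TAA+celecoxib libraries, at 8864 to 9717. Mt-nd4, which had the smallest p of the 13, stood at 330, 290 and 334 CPM in control, 265, 282 and 344 CPM under TAA, and 383, 436 and 417 CPM in TAA+celecoxib. Its 3 TAA+celecoxib values were the 3 highest. It was 1.39 times higher than in TAA (log2 fold change 0.47, SE 0.13, unadjusted p = 0.00602, adjusted p = 0.890, edgeR) and 1.30 times higher than in control (0.37, SE 0.13, adjusted p = 0.911, edgeR).

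Mt-nd1 gave 2426, 2041 and 2022 CPM in control, 1838, 2064 and 2259 CPM under TAA, and 2875, 2691 and 2473 CPM in TAA+celecoxib. Again the 3 TAA+celecoxib libraries were above all others, and the fitted level was 1.30 times that of TAA (log2 fold change 0.38, SE 0.15, unadjusted p = 0.0280, adjusted p = 0.890, edgeR). Mt-nd2, encoded just downstream, had 2650, 2126 and 1906 CPM in control, 1995, 1700 and 2010 CPM under TAA, and 2488, 2669 and 2308 CPM in TAA+celecoxib. It lay above TAA in every TAA+celecoxib library but overlapped with control, where control 1 was the second highest of the 9.

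Of the 13 mRNAs, Mt-nd5 had the narrowest range over the 9 libraries, with 1026, 977 and 929 CPM in control, 1002, 1025 and 1101 CPM under TAA, and 1057, 1269 and 1183 CPM in TAA+celecoxib. It was fitted higher in TAA than in control (log2 fold change 0.09, SE 0.12), as was Mt-cyb, unlike the other 11 mRNAs, with adjusted p-values of 0.855 and 0.988 (edgeR). Mt-nd6, from the opposite strand, gave 327, 264 and 207 CPM in control, 218, 229 and 220 CPM under TAA, and 348, 250 and 257 CPM in TAA+celecoxib. The TAA values of Mt-nd6 were close together and below all TAA+celecoxib values, at a log2 fold change of 0.36 (SE 0.19, adjusted p = 0.890, edgeR). As a share of the 13 mRNAs, Mt-nd6 was 0.625% to 0.778% in the 9 libraries, and in no comparison did this share differ beyond its spread (exact permutation p = 0.5, 0.9 and 0.3 in the order used above for the called genes).

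Mt-nd3, Mt-nd4l and Mt-nd5 were the complex I genes whose TAA and TAA+celecoxib libraries overlapped; for Mt-nd5 the log2 fold change between them was 0.17 (SE 0.12, adjusted p = 0.890, edgeR). Mt-nd3 gave 864, 621 and 405 CPM in control, 606, 467 and 436 CPM under TAA, and 721, 408 and 483 CPM in TAA+celecoxib, so that the groups overlapped and replicate 1 was the highest in each. Mt-nd4l gave 375, 368 and 300 CPM in control, 355, 290 and 339 CPM under TAA, and 304, 425 and 378 CPM in TAA+celecoxib, also overlapping. The log2 fold changes of Mt-nd3 and Mt-nd4l in TAA+celecoxib against TAA were 0.10 (SE 0.30) and 0.17 (SE 0.16), with adjusted p-values of 0.968 and 0.903 (edgeR), and that of Mt-nd3 turned to -0.17 without TAA+celecoxib 1.

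For complex III, Mt-cyb encodes cytochrome b, the only subunit that the mitochondrial genome supplies. It had 3990, 3382 and 3133 CPM in control, 3509, 3330 and 3751 CPM under TAA, and 4518, 3930 and 4072 CPM in TAA+celecoxib. The TAA+celecoxib values were above all TAA values by a smaller margin than for Mt-nd1 (log2 fold change 0.24, SE 0.15, adjusted p = 0.890, edgeR), and control 1 reached into their range.

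Complex IV, the terminal oxidase that passes electrons to oxygen, has its catalytic core encoded by Mt-co1, Mt-co2 and Mt-co3. These 3 mRNAs held 56.0% to 59.4% of the counts of the 13, and 1.84% ± 0.184 of all counts in TAA against 2.36% ± 0.201 in TAA+celecoxib and 2.07% ± 0.243 in control (SD, n = 3 each). Mt-co1, the most abundant by counts, gave 12091, 10616 and 9558 CPM in control, 9421, 9432 and 11278 CPM under TAA, and 14004, 12756 and 11549 CPM in TAA+celecoxib. TAA 3 came just below the lowest TAA+celecoxib library, and the groups did not overlap (log2 fold change 0.35, SE 0.18, adjusted p = 0.890, edgeR).

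Mt-co2 gave 4921, 3780 and 3069 CPM in control, 3200, 2865 and 3500 CPM under TAA, and 5115, 3910 and 3993 CPM in TAA+celecoxib. Mt-co3 gave 7262, 5303 and 5002 CPM in control, 4849, 4812 and 5532 CPM under TAA, and 8154, 6327 and 6448 CPM in TAA+celecoxib. For both genes each TAA+celecoxib library exceeded each TAA library and replicate 1 led in control and in TAA+celecoxib. The fitted levels were 1.36 and 1.38 times those of TAA (log2 fold changes 0.44, SE 0.21, and 0.46, SE 0.20, adjusted p = 0.890 for both, edgeR).

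Complex V takes Mt-atp6, a part of its proton channel, and Mt-atp8, a small subunit of its membrane part. Mt-atp6 stood at 5714, 4298 and 3873 CPM in control, 3900, 3851 and 4176 CPM under TAA, and 5942, 4846 and 4538 CPM in TAA+celecoxib, with TAA below TAA+celecoxib throughout (log2 fold change 0.36, SE 0.19, adjusted p = 0.890, edgeR). Among the protein-coding rows, only Mt-atp8 was fitted lower in TAA+celecoxib than in TAA. It gave 26.1, 21.5 and 9.56 CPM in control, 15.5, 12.2 and 10.1 CPM under TAA, and 11.6, 12.1 and 11.8 CPM in TAA+celecoxib. Its control libraries spanned more than the other groups, and its log2 fold changes were -0.60 (SE 0.33) for TAA and -0.69 (SE 0.33) for TAA+celecoxib against control, with adjusted p-values of 0.788 and 0.911 (edgeR).

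**Figure D3:**
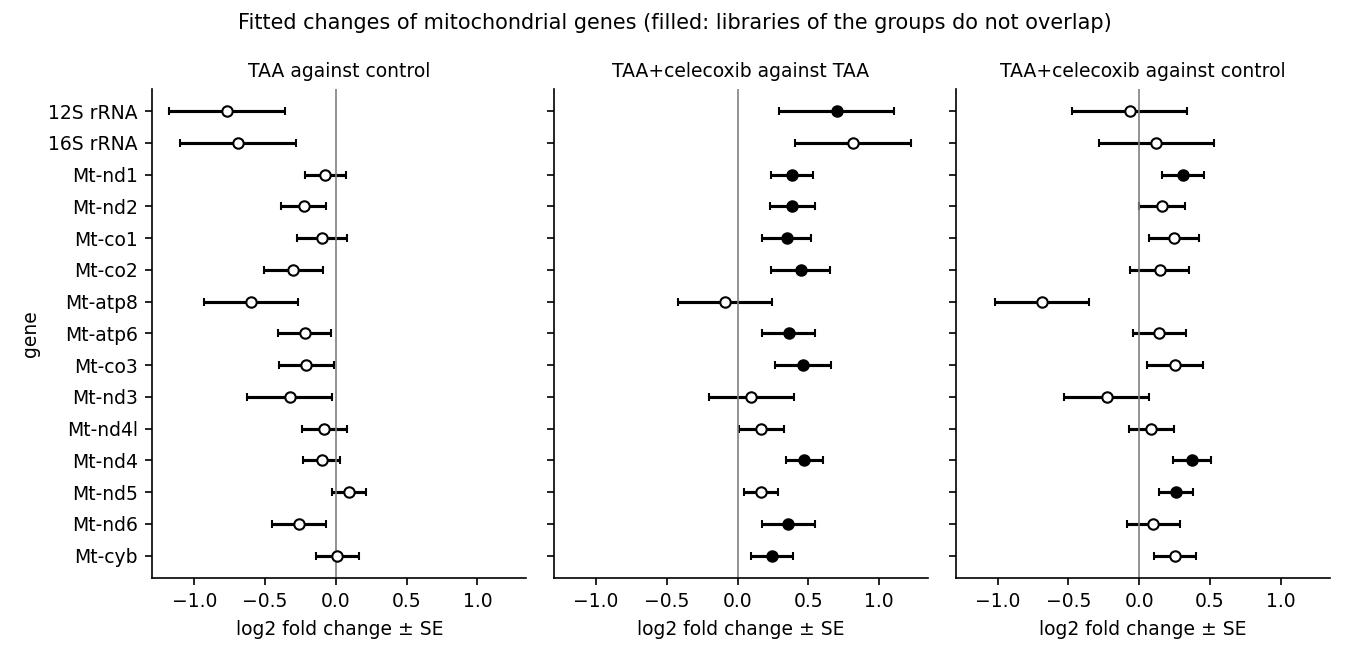
Log2 fold change with its SE for the 2 rRNAs and 13 mRNAs in the 3 comparisons, in genome order; filled points mark genes whose libraries do not overlap between the groups. For TAA+celecoxib against TAA, 9 mRNAs are filled and 12 lie right of 0, while in TAA against control none is filled and 11 lie left of 0.

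Within the pool of the 13 mRNAs the proportions varied least for Mt-co1, Mt-co3 and Mt-atp6 and most for Mt-atp8, Mt-nd3 and Mt-nd4l. Mt-co1 ranged over 1.12 times between libraries, from 28.8% to 32.3% of the pool, and Mt-atp6 and Mt-co3 over 1.14 times each. Mt-atp8 ranged over 2.49 times, Mt-nd3 over 2.01 times and Mt-nd4l over 1.72 times. Mt-nd3 made up 2.06%, 1.82% and 1.32% of the pool in control, 1.94%, 1.54% and 1.25% in TAA, and 1.57%, 1.02% and 1.27% in TAA+celecoxib, and the groups overlapped. In TAA+celecoxib 1, Mt-nd4l at 0.662% and Mt-nd5 at 2.30% were the lowest of the 9 libraries.

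**Figure D4:**
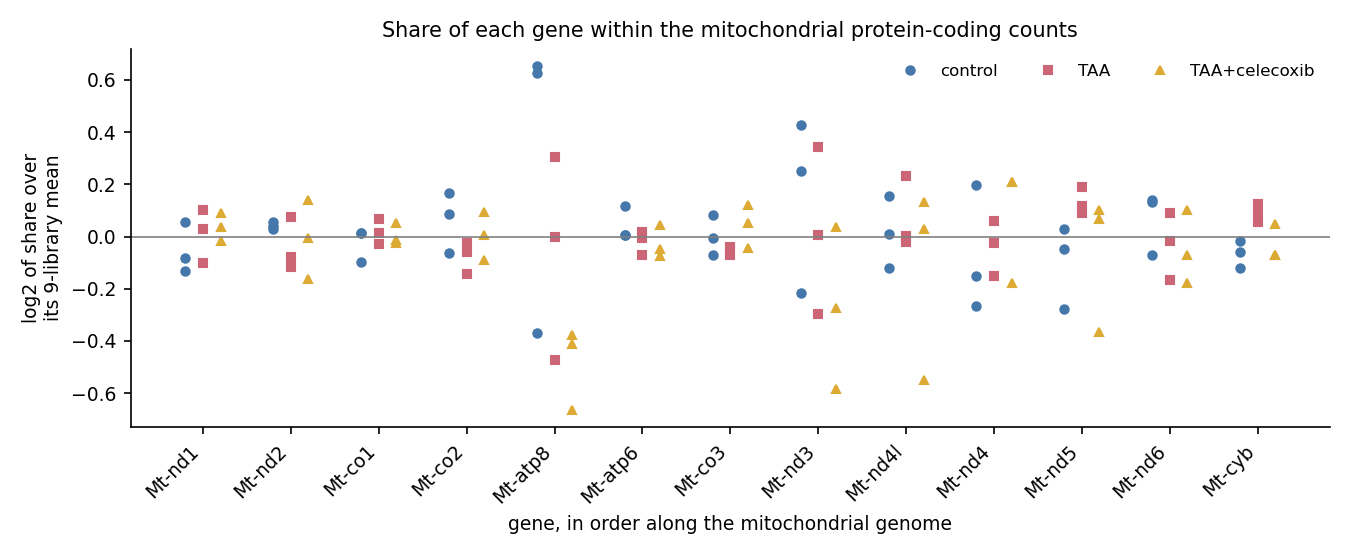
Log2 of each gene's share of the 13-mRNA pool over its mean in the 9 libraries, with 1 point per library. Points of Mt-co1, Mt-atp6 and Mt-co3 stay near 0, while those of Mt-atp8, Mt-nd3 and Mt-nd4l spread most, over 2.49, 2.01 and 1.72 times.

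The 2 rRNAs are listed as AY172581.9 (MT positions 68 to 1025, 958 bases) and AY172581.24 (1094 to 2664, 1571 bases), and are called 12S and 16S here from their lengths. Positions are those of the file, whose build is unresolved. The 12S rRNA stood at 994, 571 and 346 CPM in control, 394, 370 and 359 CPM under TAA, and 954, 457 and 412 CPM in TAA+celecoxib. The 16S rRNA stood at 1432, 826 and 538 CPM in control, 637, 501 and 592 CPM under TAA, and 1575, 871 and 598 CPM in TAA+celecoxib. Control 1 and TAA+celecoxib 1 were the highest for both, and the TAA libraries were close together near the low end.

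The 2 rRNAs held 0.0952% ± 0.00556 of counts in TAA, 0.157% ± 0.0711 in control and 0.157% ± 0.0722 in TAA+celecoxib (SD, n = 3 each). TAA+celecoxib lay above TAA without overlap (p = 0.1, exact permutation test, the smallest possible), by 0.0620 percentage points with all libraries and by 0.0208 without TAA+celecoxib 1. TAA against control gave a difference of -0.0615 points (p = 0.3, exact permutation test), or -0.0230 without control 1. By gene, the log2 fold changes of 12S and 16S were -0.77 and -0.69 in TAA against control and 0.70 and 0.82 in TAA+celecoxib against TAA, each with an SE of 0.41 and adjusted p-values of 0.788 and 0.890 (edgeR). Without control 1 the first pair was -0.29 and -0.24, and without TAA+celecoxib 1 the second pair was 0.22 and 0.35. Only 12S did not overlap in the second of these.

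The rRNAs moved apart from the mRNAs between libraries of 1 group. Per 100 counts of the 13 mRNAs there were 5.78, 4.10 and 2.88 rRNA counts in control, 3.31, 2.87 and 2.72 in TAA, and 5.51, 3.32 and 2.65 in TAA+celecoxib. The high values were again those of control 1 and TAA+celecoxib 1, the libraries lowest in macrophage and endothelial markers; the part of those cells in this was not tested. For the log2 of this ratio the exact permutation p was 0.2 in TAA against control, 0.6 in TAA+celecoxib against TAA and 0.7 in TAA+celecoxib against control. The difference of -0.47 in the first became -0.22 without control 1, and that of 0.30 in the second became 0.00701 without TAA+celecoxib 1. Paired by number, which the labels do not state as a pairing, all 3 TAA+celecoxib libraries were lower than the same-numbered controls (exact paired permutation p = 0.25, the smallest possible for 3 pairs). By length, 12S and 16S were near equal, with 12S at 0.860 to 1.21 times the FPKM of 16S, and both lay well below most mRNAs, at means of 556 and 528 FPKM. Whether poly(A) selection or rRNA depletion was used is not given. The rRNA levels and their ratio to the mRNAs therefore describe the libraries and not the amounts in the cells.

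Of the 22 tRNA rows, 5 passed the filter, 13 others had 1 to 53 counts in all 9 libraries together, and 4 had none, which allows up to 0.0204 CPM (3 counts over the summed libraries, counting error only). The files do not give the amino acid of a row. The rows span 60 to 75 bases, and 8 of the 22 are on the minus strand, as are 4 of the 5 that passed. As for Mt-nd6, the strand setting is not given, so reads from the opposite strand cannot be told apart from a row's own. AY172581.2 (MT positions 15348 to 15415, minus strand) alone held 56.6% of the 6191 tRNA counts. All 22 rows made up 0.00356% to 0.00558% of a library, with TAA+celecoxib 1 the highest.

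AY172581.2 gave 27.1, 25.0 and 19.6 CPM in control, 21.2, 24.2 and 20.1 CPM under TAA, and 29.4, 28.3 and 20.7 CPM in TAA+celecoxib, with overlap between all groups. AY172581.18 (5081 to 5152, minus strand) gave 7.34, 6.23 and 8.42 CPM in control, 7.46, 8.22 and 9.92 CPM under TAA, and 19.6, 10.9 and 9.25 CPM in TAA+celecoxib. AY172581.16 (9800 to 9867, plus strand, between Mt-nd3 and Mt-nd4l) gave 1.36, 0.723 and 1.02 CPM in control, 0.995, 1.64 and 1.51 CPM under TAA, and 2.15, 2.67 and 1.58 CPM in TAA+celecoxib. Both of the last named were higher in every TAA+celecoxib library than in every control library, at log2 fold changes of 0.85 (SE 0.30) and 1.04 (SE 0.38), with unadjusted p-values of 0.0186 and 0.0222 and an adjusted p of 0.911 (edgeR). When 1 library was left out, these fold changes ran from 0.456 to 1.06 and from 0.835 to 1.28. Among all tested genes, 5.27% were higher in TAA+celecoxib than in control without overlap. AY172581.16 rested on 13 to 38 counts per library. AY172581.10 and AY172581.7 stayed between 2.30 and 3.24 CPM in the 9 libraries.

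Nuclear genes were taken from 12 lists, those of the same complexes and of the other mitochondrial roles described below. Of their 240 symbols, 232 were found in the table and 227 tested, and edgeR called none of them in any comparison. Of 71 tested nuclear subunits of complexes I to V, 15 had a higher and 56 a lower fitted level in TAA+celecoxib against TAA, and their median was -0.11 on the log2 scale where the 13 mitochondrial mRNAs had 0.36. Their libraries did not overlap in 1 gene that was higher and 3 that were lower, against 10.9% of all tested genes. The nuclear count moved with single libraries of either group: it was 33 higher and 38 lower without TAA 1, 28 and 43 without TAA+celecoxib 2, 23 and 48 without TAA+celecoxib 3, 21 and 50 without TAA 2, 5 and 66 without TAA+celecoxib 1 and 4 and 67 without TAA 3, with medians from -0.25 to -0.01, all below 0. In TAA against control, 51 of 71 were lower with a median of -0.06, which turned to 48 higher without control 1 and to 44 higher without TAA 3. In TAA+celecoxib against control 59 of 71 were lower, with a median of -0.18, which became -0.0362 with 47 lower without control 1, -0.0788 with 53 lower without TAA+celecoxib 2 and -0.32 with 65 lower without TAA+celecoxib 1.

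Levels per length set the mitochondrial and nuclear subunits of a complex side by side. In complex IV the mean FPKM of the 3 mitochondrial genes was 25.1 ± 0.523 times that of 10 nuclear genes in control, 24.7 ± 8.10 times in TAA and 35.0 ± 3.61 times in TAA+celecoxib (SD, n = 3 each). TAA 3, at 34.0, reached into the TAA+celecoxib range of 31.4 to 38.6. In complex I the ratio of 7 mitochondrial to 35 nuclear genes was 17.7 ± 0.928, 16.9 ± 3.72 and 22.4 ± 3.28 in the same order, in complex V 15.6 ± 0.960, 14.9 ± 3.77 and 20.3 ± 2.07, and for Mt-cyb over 9 nuclear genes of complex III 28.7 ± 1.06, 32.0 ± 9.05 and 40.1 ± 5.84. In all 4 complexes each TAA+celecoxib library was above each control library and overlapped with TAA through TAA 3.

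Among nuclear subunits the smallest p-values in TAA+celecoxib against TAA were those of Cox8a in complex IV (99.9 ± 14.0 against 145 ± 35.3 CPM, log2 fold change -0.54, adjusted p = 0.890, edgeR) and Sdha, the catalytic subunit of complex II, which has no mitochondrially encoded part (161 ± 9.71 against 192 ± 10.5 CPM, log2 fold change -0.25, adjusted p = 0.890, edgeR). In the same comparison Ndufa8 and Ndufb6 of complex I had log2 fold changes of -0.46 and -0.50, Sdhb of complex II -0.17, Uqcr11 and Uqcrc2 of complex III -0.51 and 0.12, Cox6a1 of complex IV -0.44, and Atp5pf and Atp5f1c of complex V -0.30 and -0.13. All 15 tested complex V genes were fitted lower in TAA+celecoxib, 10 of 15 without TAA 1 and 9 of 15 without TAA+celecoxib 2, and none of the 15 was free of overlap. Atp5pb varied most within control, at 37.7, 1.22 and 13.5 CPM against 0.842 to 1.85 CPM in the 6 TAA-treated libraries; it was called by DESeq2 (adjusted p = 0.0127 for TAA and 0.00178 for TAA+celecoxib against control) and not by edgeR (adjusted p = 0.788 and 0.911).

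The 9 genes of the mitochondrial transcription list, which reads the genome into RNA, were fitted lower in 8 of 9 in TAA against control, with a median of -0.16, and higher in 9 of 9 in TAA+celecoxib against TAA, with a median of 0.23. Without TAA+celecoxib 1 the latter was 5 of 9 with a median of 0.0734, without TAA 3 it was 6 of 9, and without control 1 the former median was -0.0721. None of the 9 had an unadjusted p under 0.05 in either (edgeR), and in each 2 of 9 did not overlap, where 7.89% of all tested genes were lower in TAA and 5.87% higher in TAA+celecoxib without overlap. Polrmt, the mitochondrial RNA polymerase, gave 33.5, 27.2 and 25.8 CPM in control, 24.5, 24.3 and 25.4 CPM under TAA, and 30.5, 22.2 and 26.9 CPM in TAA+celecoxib. Tfam, which packages the genome and opens its promoters, gave 59.8, 52.9 and 50.1 CPM, 49.9, 52.2 and 44.8 CPM, and 61.3, 40.7 and 49.7 CPM in the same order. For both genes TAA+celecoxib 2 was the lowest of the 9 and the TAA values lay inside the TAA+celecoxib range. Mterf1, a termination factor that binds downstream of the rRNA genes, was at 17.4 ± 2.60 CPM in control, 14.0 ± 1.24 in TAA and 18.2 ± 3.85 in TAA+celecoxib, with TAA below both without overlap (adjusted p = 0.788 and 0.890, edgeR), and Tfb2m, which helps the polymerase start, at 19.9 ± 7.25, 14.6 ± 1.77 and 19.0 ± 6.03 CPM.

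Of the 20 genes of mitochondrial RNA processing and decay, 18 were fitted higher in TAA+celecoxib against TAA, with a median of 0.14, and 13 of 20 with a median of 0.0504 without TAA+celecoxib 1. Ptcd3, a protein of the small subunit of the mitochondrial ribosome that binds the 12S rRNA, was at 172 ± 25.8 CPM in control, 125 ± 12.2 in TAA and 193 ± 40.0 in TAA+celecoxib. TAA was below both groups without overlap, at log2 fold changes of -0.46 (unadjusted p = 0.0292) for TAA against control and 0.62 (unadjusted p = 0.00640) for TAA+celecoxib against TAA, with adjusted p-values of 0.788 and 0.890 (edgeR). Lrpprc, which stabilizes mitochondrial mRNAs, was at 102 ± 7.23 CPM in control, 118 ± 7.51 in TAA and 121 ± 9.30 in TAA+celecoxib, with both treated groups above control without overlap. Hsd17b10, a subunit of the enzyme that cuts tRNA 5′ ends, was fitted lower with celecoxib, at 7.87 ± 0.901 against 11.6 ± 3.29 CPM in TAA. Of the 19 tested genes of rRNA and tRNA modification, 15 were fitted higher in TAA+celecoxib against TAA (7 without TAA+celecoxib 1), among them Trnt1, which adds the CCA end to tRNAs (57.3 ± 6.18 against 43.6 ± 2.92 CPM), and Osgepl1 (11.4 ± 0.907 against 8.00 ± 0.707 CPM), both without overlap and with an adjusted p of 0.890 (edgeR).

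The proteins of the mitochondrial ribosome, 74 tested, were fitted lower in 59 of 74 in TAA against control, with a median of -0.11 (35 of 74 without control 1 and 36 without TAA 3), and in TAA+celecoxib against TAA 41 were higher and 33 lower, with a median of 0.01 (20 higher without TAA+celecoxib 1 and 25 without TAA 3). Mrpl53 had the largest fitted change there, through 1 library: it was at 21.5 CPM in TAA+celecoxib 2 and at 0.205 to 0.710 CPM in the other 8. Genome maintenance gave 7 higher and 9 lower of 16 in TAA+celecoxib against TAA, and Polg, the catalytic subunit of the mitochondrial DNA polymerase, was at 75.2 ± 3.00 against 89.0 ± 6.59 CPM without overlap (adjusted p = 0.890, edgeR). Of 9 tested regulators of mitochondrial biogenesis, Esrra, a nuclear receptor that drives nuclear respiratory genes, was at 58.9 ± 3.37 CPM in control, 55.5 ± 6.50 in TAA and 42.3 ± 4.50 in TAA+celecoxib, below both without overlap (adjusted p = 0.911 and 0.890, edgeR). Among 10 tested genes of mitophagy, the removal of mitochondria, Pink1 was at 104 ± 18.3, 130 ± 9.83 and 104 ± 12.5 CPM and Bnip3l, which acts in maturing red cells, at 180 ± 11.1 CPM in control and 285 ± 120 in TAA+celecoxib. Erythroid markers summed to 8120 to 13500 CPM in control, 12600 to 42400 CPM in TAA and 12200 to 60200 CPM in TAA+celecoxib, and their part in these values was not tested.

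The other genes with the smallest p of their list had adjusted p-values of at least 0.788 in every comparison (edgeR). Their log2 fold changes in TAA+celecoxib against TAA were 0.36 for Mterf2, -0.60 for Endog, -0.63 for Ppargc1b, 0.21 for Fundc1 and 0.28 for Mrps22. In TAA against control those that pointed up were Nsun3 at 0.86, Atg7 at 0.37, Primpol at 0.23, Ndufs1 at 0.22, Sdha at 0.11, Uqcrc2 at 0.07, Atp5f1a at 0.19, Mrps18b at 0.26 and Mrpl36 at 1.60. Those that pointed down were Rnaseh1 at -0.38, Trnt1 at -0.26, Myc at -0.32, Gabpb1 at -0.20, Sdhd at -0.13, Uqcr10 at -0.35, Cox6b1 at -0.22 and Cox4i1 at -0.23. In TAA+celecoxib against control the positive values were 0.39 for Mterf2, 0.26 for Mtpap, 0.25 for Trmt5, 0.18 for Gabpa, 0.59 for Optn and 0.19 for Uqcrc2. The negative values there were -0.49 for Rnaseh1, -0.54 for Endog, -0.12 for Polrmt, -0.30 for Rpusd4, -0.47 for Ndufa8, -0.48 for Ndufc1, -0.14 for Sdha, -0.13 for Sdhb, -0.64 for Uqcr10, -0.48 for Cox8a, -0.45 for Cox6a1, -0.42 for Atp5pf and -0.57 for Mrpl54.

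**Figure D5:**
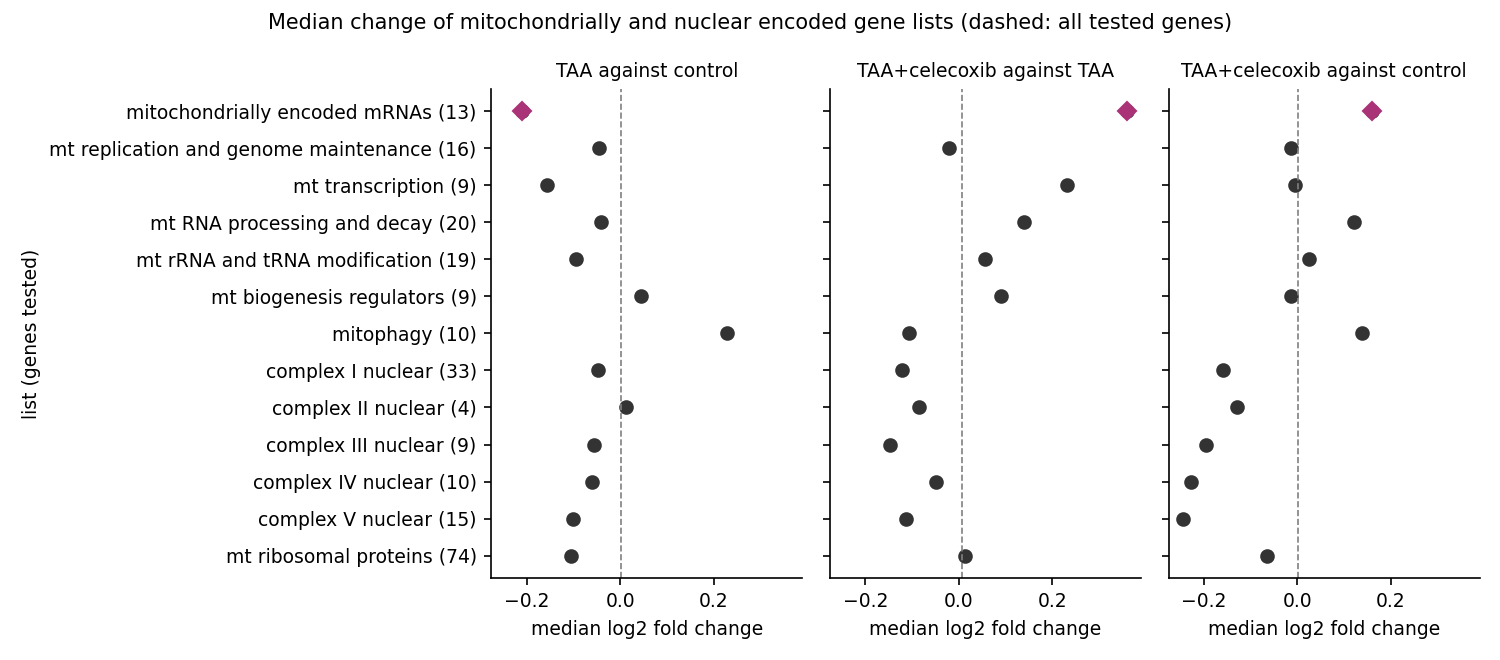
Median log2 fold change of the 13 mitochondrially encoded mRNAs (diamond) and of 12 lists of nuclear encoded genes (circles, genes tested in parentheses) in the 3 comparisons; the dashed line is the median of all tested genes. In TAA+celecoxib against TAA the mitochondrial mRNAs lie at 0.36 and the transcription list at 0.23, while the medians of the 5 nuclear complex lists lie between -0.15 and -0.05.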

How the data were processed

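RNA-seq of 9 rat spleen libraries, 3 per group as labelled, was analysed. The authors deposited whole-number read counts per gene and FPKM values; each deposited FPKM is the count over gene length and a library constant, which was 0.955 to 1.05 times the count total. The aligner HISAT2 (2.0.5) and a genome build, mRatBN7.2, are named per the submitters' processing notes. Which counting tool, strand setting and RNA selection (poly(A) or rRNA depletion) applied is not given in the sources used here. Coordinates on chromosome 1 run to 282724300, which goes beyond that build, so the build of the coordinates is unresolved.

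Counts were tested with edgeR 4.0.16 (quasi-likelihood, TMM, filterByExpr with a minimum count of 10, all 9 libraries in 1 fit, Benjamini-Hochberg over 15954 genes, R 4.3.3). The SE is the fold change over the square root of F. Shares and ratios were tested by exact two-sided permutation. FPKM were used to compare genes, for the ratios of mitochondrial to nuclear subunits set side by side between groups, and for an alternative share. Fits were tested on simulated data. Alternatives were DESeq2 1.42.0, limma-voom 3.58.1, other scalings, no filter, a replicate block, 6-library fits, other denominators and leaving out libraries. Replicate numbers come from the titles. Same-numbered control and TAA+celecoxib libraries deviated together in all 3 pairs (correlations 0.178 to 0.475). The labels state no pairing, and TAA 3 and TAA+celecoxib 2, of different numbers, reached 0.219. Values paired by number are therefore descriptions, and the block changed no call in that comparison.

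Named were all 13 mRNAs, both rRNAs, tRNAs that passed the filter and the 2 members of each nuclear list with the smallest p per comparison; Tfam was added for its role after its values were seen. One gene that this rule names is not reported here. All 12 marker lists are given as summed CPM. The members and lists were chosen with earlier results of these data known.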

Additional observations from a re-analysis of the deposited data

How the results depend on the processing

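No tested mitochondrial row was called under any alternative run; of the other named genes, DESeq2 called Atp5pb, as given above. The numbers of mRNAs fitted higher or lower were the same under each scaling, tool and filter run with all libraries. The 3 libraries a group and a smallest exact p of 0.1 limit every share test. DESeq2 called 53 genes in TAA against control, 25 in TAA+celecoxib against TAA and 27 in TAA+celecoxib against control, and the fit of 6 libraries called 1 in the last. Leaving out 1 library gave 0 to 1, 0 to 3 and 0 to 2 calls in that order, the most without TAA+celecoxib 2, TAA 1 and TAA 1.

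With the replicate number as a block, 0 genes were called in each comparison and no call changed. In the labels, the same-numbered libraries of every comparison share only a number. Of all 9 same-number pairs, with correlations of deviations from -0.213 to 0.475, 6 were over 0.1, and 6 of 9 libraries correlated best with their own number.

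The rRNA share difference of TAA+celecoxib against control turned from 0.000541 to -0.00300 percentage points as a share of summed FPKM, and to -0.00224 without control 1 and TAA+celecoxib 1. Leaving out 1 library gave -0.0407 to 0.0390 points for it, -0.460 to 0.0878 for the log2 rRNA to mRNA ratio of the same comparison, -0.0911 to 0.0481 for the log2 Mt-nd6 share in TAA+celecoxib against TAA, and, in TAA against control, -0.14 to 0.00117 for the log2 12S to 16S ratio and -0.000295 to 2.76e-05 points for the tRNA share, which was 5.19e-06 without both libraries named above. The median log2 fold change of the 13 mRNAs in TAA against control ran from -0.31 without control 3 to -0.0284 without control 1, and was -0.0413 without both. It stayed between 0.28 and 0.43 in TAA+celecoxib against TAA, and in TAA+celecoxib against control between 0.06 and 0.32.

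Single log2 fold changes that changed sign when a library was left out were, in TAA against control, Mt-nd1 (-0.148 to 0.0165), Mt-cyb (-0.0623 to 0.116), AY172581.10 (-0.0613 to 0.117) and AY172581.7 (-0.0766 to 0.0748). With TAA+celecoxib against TAA they were Mt-atp8 (-0.225 to 0.0684), Mt-nd3 (-0.17 to 0.26; -0.17 without both) and AY172581.10 (-0.0193 to 0.159). Against control they were 12S (-0.55 to 0.41), 16S (-0.34 to 0.57), Mt-co2 (-0.00350 to 0.34), Mt-nd3 (-0.500 to 0.0677), Mt-nd4l (-0.0280 to 0.207), Mt-nd6 (-0.0699 to 0.276) and Polrmt (-0.23 to 0.00313). The cause of these shifts was not tested, and leaving out both libraries was chosen after seeing the data. Of the 22 tRNAs, 17 had too few counts to pass the filter and were not tested.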
